A study of Mus musculus with 15 samples.

Results

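The question here was whether the lung's miRNA response to bleomycin differs between wild-type (WT) mice and mice with the R213G form of EC-SOD, the superoxide dismutase found outside cells. For each miRNA the difference is the interaction, that is, the R213G response (bleomycin minus PBS) minus the WT response, on a log2 scale. All 15 libraries and every miRNA whose equalized count exceeded 5 in 3 or more of them were used, which left 818 of the 1424 mature mouse miRNAs of the deposited table. The equalized count is 2 to the power of the deposited log2 value, minus 1, a count scaled to a common library size as far as the values show.

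Mice were C57BL/6, WT or homozygous for R213G, of both sexes, and 11 weeks old by the labels, which also give 8 to 12 weeks as the age at dosing. Each received 100 uL of PBS alone, or of PBS with bleomycin at 1 U/mL, once into the trachea, and whole lungs were flushed through the right ventricle and frozen 7 days after dosing. WT mice gave 3 PBS and 4 bleomycin libraries, and R213G mice 4 of each. The variant is carried by every cell of the R213G mice, and which animals were male or female was not known here. Nothing in the labels says outright that each library is a separate animal, so p-values measure the spread between these libraries, and miRNAs cannot check the genotype because the Sod3 transcript was not measured.

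EC-SOD removes superoxide and is held on the matrix and on cell surfaces by a positively charged tail. The R213G change lies in that tail and weakens the binding, so more of the enzyme stays in the blood and airway lining fluid. Bleomycin breaks DNA and causes acute inflammation followed by fibrosis. A miRNA guides silencing of mRNAs mainly through its seed, bases 2 to 8 from the 5′ end, so miRNAs with one seed share many targets.

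Sequences of the miRNAs on which the comparison turns are given first, 5′ to 3′, with the seed in capitals. They come from RefSeq (GRCm38.p6), which held a usable mature sequence for 688 of the 818 tested miRNAs. The first set holds miRNAs with shared responses to bleomycin, and miR-146a-5p, which is shown for its seed.
miR-21a-5p: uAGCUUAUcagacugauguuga
miR-21a-3p: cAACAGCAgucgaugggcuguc
miR-132-3p: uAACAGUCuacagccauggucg
miR-212-3p: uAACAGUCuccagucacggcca
miR-146b-5p: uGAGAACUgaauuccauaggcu
miR-146a-5p: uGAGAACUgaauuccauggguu
miR-34a-5p: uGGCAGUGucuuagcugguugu
miR-1298-5p: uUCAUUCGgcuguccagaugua
miR-448-3p: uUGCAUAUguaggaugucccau
The strand pair of miR-21a lies in an exon of Vmp1 (miR-21a-5p at chr11:86584120-86584141, minus strand). The miR-132-3p and miR-212-3p sequences share a seed and lie side by side on the plus strand of chromosome 11 (chr11:75173723-75173744 and chr11:75173443-75173464), in an intron of the transcript 1700016P03Rik. The seed of miR-146b-5p, in an intron of Mfsd13a (chr19:46342790-46342811), is that of miR-146a-5p. Both miR-1298-5p (chrX:147064918-147064939) and miR-448-3p (chrX:147158281-147158302) lie in introns of the serotonin receptor gene Htr2c.

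The second set holds miRNAs with the smallest unadjusted p of the interaction, shown because they are where a difference between the genotypes would be looked for first.
miR-96-3p: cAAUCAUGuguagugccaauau
miR-345-5p: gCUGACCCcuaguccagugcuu
miR-423-3p: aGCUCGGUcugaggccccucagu
miR-329-3p: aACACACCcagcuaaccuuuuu
miR-484: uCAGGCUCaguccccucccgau
let-7f-5p: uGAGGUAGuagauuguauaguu
let-7d-5p: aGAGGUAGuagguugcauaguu
No seed is shared within this set except by let-7f-5p and let-7d-5p, the second of which is shown for comparison and was not among those with a small p. In the annotation miR-345-5p lies in an intron of Slc25a47 (chr12:108836989-108837010) and miR-423-3p in an intron of Nsrp1 (chr11:77078086-77078108, minus strand).

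Library facts bear on what follows. Libraries correlated at 0.972 to 0.994 over the tested miRNAs, none were identical, and the equalized counts of a library added up to 18087300 at the least and 24759600 at the most. As a single summary, the mean log2 value of the 235 miRNAs that rose in the average of both responses was taken minus that of the 180 that fell (limma adjusted p under 0.05). This summary was -4.03, -4.08 and -3.68 in the WT PBS libraries, and -2.55, -2.24, -2.46 and -2.27 after bleomycin. In R213G it was -3.93, -3.95, -3.82 and -3.86 after PBS and -2.22, -2.33, -2.18 and -2.18 after bleomycin. WT PBS replicate 3 lay nearest to the bleomycin libraries of all PBS libraries, and no PBS library overlapped any bleomycin library. The summary rose by 1.55 in WT and by 1.66 in R213G, a difference of 0.11, given as a description because the same libraries chose the miRNAs.

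No miRNA passed the test of the interaction. Of 818 tested, 0 had an adjusted p under 0.05 (0%, limma), 0 had one under 0.1, and the smallest adjusted p was 0.399. Without adjustment 65 (7.95%) had p under 0.05, 28 with a positive and 37 with a negative interaction. The count fell to 43 without R213G bleomycin replicate 3 and reached 95 without R213G bleomycin replicate 2, and no call was made without any 1 library. The interactions centred near 0, with a median of -0.02 and quartiles of -0.26 and 0.25.

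Both genotypes gave a broad response. In WT lungs 134 miRNAs rose and 84 fell, 26.7% of those tested, and in R213G lungs 182 rose and 162 fell, 42.1% (limma adjusted p under 0.05). The WT and R213G responses share no library. Of the 134 WT risers 131 had a positive difference in R213G too, and all 84 WT fallers had a negative one. In the other direction 174 of the 182 R213G risers and 149 of the 162 R213G fallers had the same sign in WT. Over all tested miRNAs the sign was shared by 655 (80.1%).

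Across the 818 miRNAs the responses correlated with a Pearson r of 0.78 and a Spearman rho of 0.73. This is a description across miRNAs, which are not independent replicates and come from the same scaled libraries. The correlation was 0.69 for the 336 miRNAs with a mean level under log2 5, 0.83 between 5 and 8, 0.92 between 8 and 11 and 0.90 above 11.

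**Figure D1:**
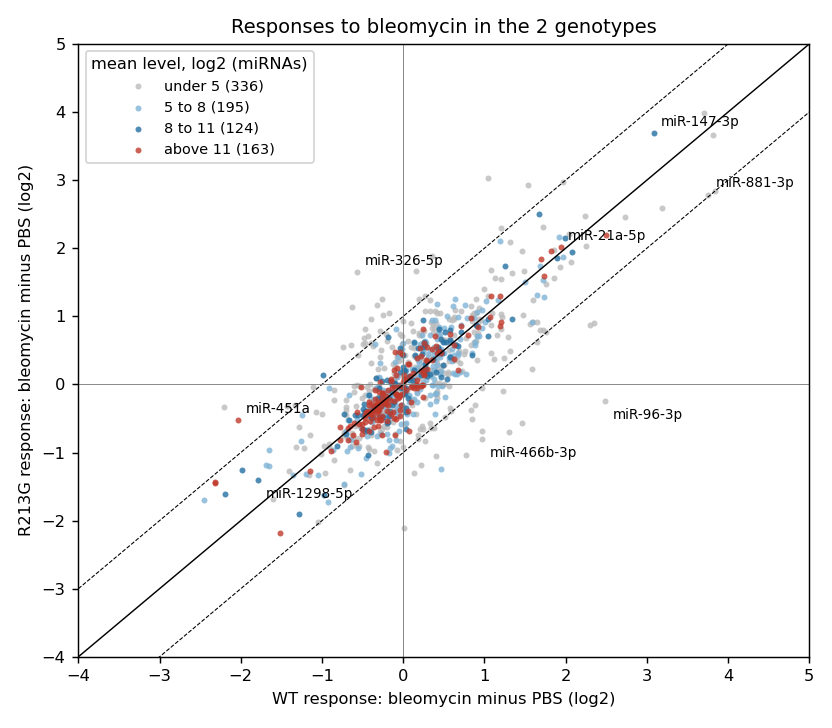
Response to bleomycin (bleomycin minus PBS, difference of group mean log2 values) in R213G lungs (vertical axis) against WT lungs (horizontal axis), 1 point per miRNA, coloured by mean level over the 15 libraries. The solid line marks equal responses and the dashed lines a 2-fold difference between them. Points far from the solid line are mostly those with a mean level under log2 5, such as miR-96-3p and miR-326-5p.

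A call in one genotype alone was common. Both responses were called in the same direction for 177 miRNAs (104 up, 73 down), in WT alone for 40 and in R213G alone for 166. The WT-alone count was 21 without WT PBS replicate 1. Of the 40 called in WT alone, 38 had the same sign in R213G, and of the 166 called in R213G alone, 146 had the same sign in WT. None of either set had an interaction that passed (smallest limma adjusted p = 0.399), so a call in one genotype alone did not show a difference between them. With 1 fewer PBS library, the median standard error was 0.243 for the WT response against 0.225 for the R213G response. The R213G calls numbered 289 to 324 when 1 of the R213G PBS libraries was left out, against 344 with all of them and 218 in WT.

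Among the 177 called in both, a choice that favours responses of like size, the median sizes were close. The median absolute difference was 0.88 in WT and 0.90 in R213G, and the R213G response was the larger for 90 of them. Among the 415 miRNAs called in the mean of both responses it was the larger for 244 (58.8%). Over all 415 the median interaction in the direction of the response was 0.07. The median absolute interaction of the 177 was 0.14. Their widest was that of miR-217-5p, named here after its values were seen, at 1.39.

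The 12 risers and 8 fallers described next have the smallest p in the mean of both responses. That choice favours a small spread in the same fit, so their narrow intervals are a description and not a result. Larger shared responses outside the choice were less precise, such as miR-147-3p, which rose by 3.09 in WT and 3.69 in R213G, with an interaction between -0.64 and 1.84. The fibrosis-linked miR-21a-5p stood at 17.75, 17.75 and 18.39 in WT PBS and at 19.67, 20.01, 19.85 and 20.10 in WT bleomycin libraries. In R213G it stood at 17.86, 17.93, 18.01 and 17.94 after PBS and at 19.86, 19.89, 20.14 and 19.91 after bleomycin. PBS and bleomycin libraries did not overlap in either genotype, and the genotypes overlapped within each treatment. The response was 1.94 in WT and 2.02 in R213G, an interaction of 0.075 ± 0.19 (SE; limma adjusted p = 0.949), so the fold change in R213G was 1.05 times that in WT, with a 95% confidence interval of 0.792 to 1.40. For its partner strand miR-21a-3p the ratio of fold changes was 0.809 (0.581 to 1.13).

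The CREB-induced neighbours miR-132 and miR-212 had close responses in both genotypes. In WT miR-212-3p was 7.31, 7.53 and 7.48 after PBS and 9.54, 9.26, 9.04 and 9.51 after bleomycin. In R213G it was 7.42, 7.47, 7.65 and 7.70 after PBS and 9.40, 9.43, 9.41 and 9.46 after bleomycin. Its bleomycin libraries all lay above its PBS libraries, with the R213G bleomycin libraries closest together. The ratio of fold changes was 0.977 (95% interval 0.748 to 1.28) for miR-212-3p and 0.910 (0.686 to 1.21) for miR-132-3p, which shares its seed. For the other arms it was 0.939 (0.703 to 1.25, miR-212-5p) and 0.877 (0.638 to 1.20, miR-132-5p).

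Other risers were bounded by a similar amount. The ratio was 1.10 (0.794 to 1.53) for miR-146b-5p, a brake on NF-kB signalling, and 1.17 for the p53 target miR-34a-5p (-0.13 to 0.58 on the log2 scale). It was 1.08 (0.861 to 1.36) for miR-335-3p, from an intron of the imprinted gene Mest, and 1.12 (0.749 to 1.67) for miR-184-3p, a miRNA of surface epithelia. The other named risers, miR-298-5p and miR-301b-3p, had ratios of 0.909 (0.593 to 1.39) and 0.797 (0.562 to 1.13). Each of the 12 intervals lay within 2-fold and held 1.

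Among the 8 named fallers, miR-676-3p (an intronic miRNA of Eda) and miR-328-3p were bounded most closely, at 0.974 (0.785 to 1.21) and 1.02 (0.849 to 1.23). The miR-351-5p and miR-351-3p strands, from a cluster on the X chromosome linked to cell-cycle arrest, gave 0.923 (0.640 to 1.33) and 1.01 (0.658 to 1.56), and the epithelial miR-31-5p gave 0.907 (0.702 to 1.17). The 3 named miRNAs of the Htr2c introns had the largest interactions of this group. After PBS miR-1298-5p was 11.84, 11.93 and 11.41 in WT and 11.76, 12.15, 11.86 and 11.98 in R213G, and after bleomycin 10.14, 10.00, 10.03 and 9.60 in WT and 10.53, 10.51, 10.48 and 10.64 in R213G. The PBS libraries of both genotypes overlapped, while all 4 R213G bleomycin libraries lay above all 4 WT bleomycin libraries. The interaction of 0.38 ± 0.20 (SE; limma adjusted p = 0.611) did not pass. For miR-1298-3p it was 0.50 and for miR-448-3p 0.45, with intervals of -0.01 to 1.01 and -0.06 to 0.97.

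**Figure D2:**
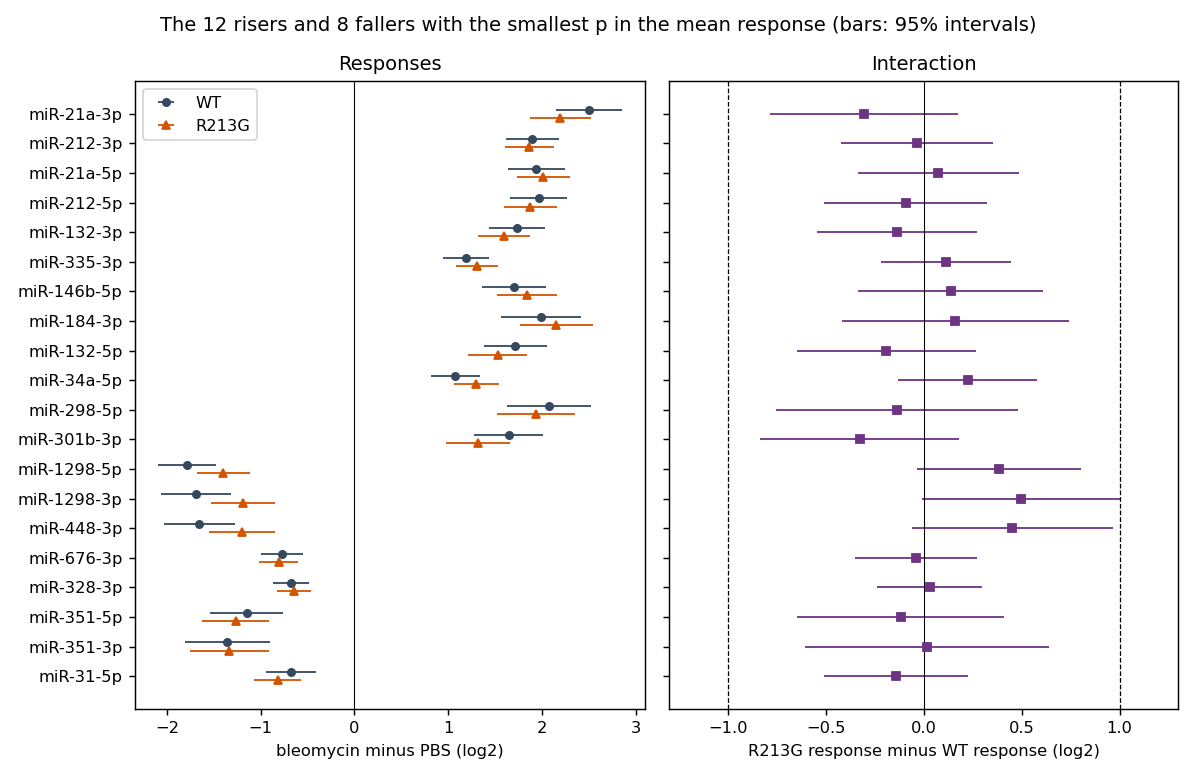
Responses to bleomycin in each genotype (left) and their difference, the interaction (right), on a log2 scale, for the 12 risers and 8 fallers with the smallest p in the mean of both responses. Points are limma estimates, bars are 95% confidence intervals and dashed lines mark a 2-fold difference. Every interval of the interaction holds 0, and all lie within 2-fold except that of miR-1298-3p, which reaches 1.01.

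How small a difference could be bounded depended on abundance. The 95% interval of the interaction lay within 2-fold (-1 to 1 on the log2 scale) for 405 miRNAs (49.5%), and by 2 one-sided limma tests with adjustment for 403. It lay within 1.5-fold for 175 (21.4%). The median half-width was 0.70. It was 1.14 for miRNAs with a mean level under log2 5, of which 32 of 336 were bounded within 2-fold, and 0.63 between 5 and 8 (113 of 195). Between 8 and 11 it was 0.43 (106 of 124), and above 11 it was 0.37 (154 of 163).

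The same spread set what could be called. For 1 miRNA alone to pass the adjusted threshold, its interaction would have had to reach a median of 2.88 under log2 5, or 7.36-fold, and 0.92 above log2 11. The 3 tested miRNAs with the narrowest intervals were miR-103-3p (-0.14 to 0.33), let-7i-5p (-0.21 to 0.27) and miR-191-5p (-0.38 to 0.12), all abundant. The 3 with the widest were miR-654-3p (-3.92 to 4.62), miR-122-5p (-5.60 to 2.21) and miR-3966 (-3.14 to 3.68). The liver miRNA miR-122-5p ran from 3.69 to 8.95 among the R213G PBS libraries alone and from 4.06 to 8.95 among the WT PBS libraries, so its response is all but unbounded here.

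**Figure D3:**
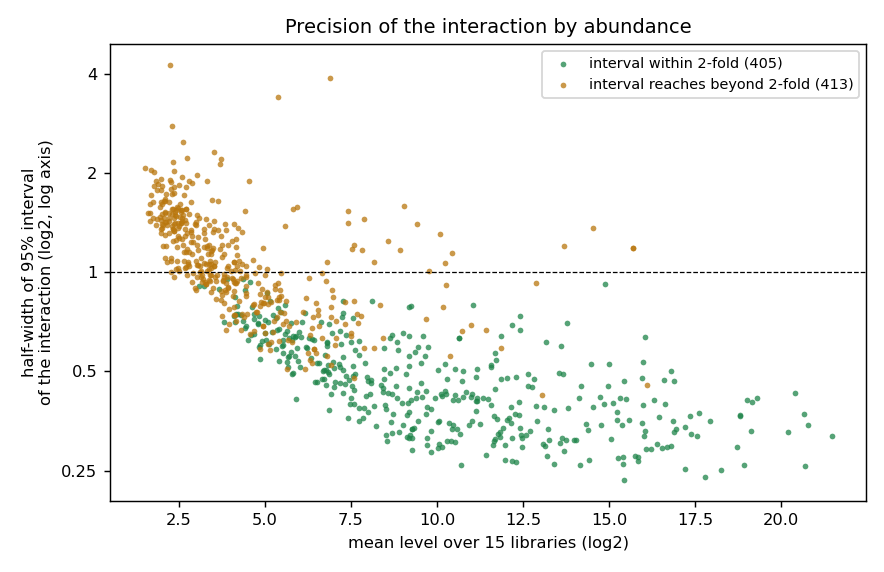
Half-width of the 95% confidence interval of the interaction (vertical, log axis, in log2 units) against the mean level over 15 libraries (horizontal, log2), 1 point per miRNA. Green points have an interval within 2-fold (405), brown points an interval that reaches beyond it (413), and the dashed line marks a half-width of 1. Median half-widths fall from 1.14 for the scarcest to 0.37 for the most abundant miRNAs.

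The 9 miRNAs above log2 11 that were not bounded within 2-fold included the red cell miRNAs miR-451a, miR-486a-5p and miR-486b-5p, the muscle miRNA miR-133a-3p, miR-19b-3p, miR-128-3p, and miR-150-5p, miR-423-3p and miR-326-3p. For miR-128-3p, a neuronal miRNA named after its values were seen, the interaction was -0.78 (-1.45 to -0.11).

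The 12 miRNAs with the smallest unadjusted p are described with their values, although none passed. Their responses were called in R213G alone except for miR-96-3p, called in WT alone, and miR-466b-3p, called in both. For several of the 12 the PBS libraries also separated by genotype, although no such difference passed (smallest limma adjusted p = 0.622).

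The lymphocyte miRNA miR-150-5p was 15.82, 16.18 and 16.05 in WT PBS and 16.47, 15.99, 15.94 and 15.95 in WT bleomycin libraries. In R213G it was 16.70, 16.33, 16.53 and 16.32 after PBS and 15.71, 16.10, 15.47 and 15.85 after bleomycin. In WT the treatments overlapped, while in R213G every bleomycin library lay below every PBS library. The R213G minus WT difference of miR-150-5p was 0.46 after PBS and -0.30 after bleomycin, with every R213G PBS library above every WT PBS library. Its interaction was -0.76 ± 0.22 (SE; limma adjusted p = 0.523), and it was -0.63 without WT bleomycin replicate 1, the highest of its group. The partner strand miR-150-3p had -0.60 (-1.08 to -0.12).

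Both strands of miR-423, an abundant intronic miRNA, pointed the same way. In WT miR-423-3p was 13.06, 13.38 and 13.12 after PBS and 13.49, 12.84, 12.99 and 13.03 after bleomycin. In R213G it was 13.40, 13.36, 13.18 and 13.40 after PBS and 12.58, 12.82, 12.33 and 12.66 after bleomycin, with no overlap between the treatments. The interaction was -0.64 (-1.06 to -0.22; limma adjusted p = 0.523), and that of miR-423-5p was -0.42 (-0.75 to -0.08). The abundant miR-484 gave -0.43 (-0.73 to -0.13) and let-7f-5p -0.36 (-0.62 to -0.10), both inside the 2-fold bounds. For both, every R213G PBS library lay above every WT PBS library. The R213G minus WT difference after PBS was 0.21 (miR-484) and 0.24 (let-7f-5p), and after bleomycin -0.22 and -0.12. Of the less studied members of the 12, miR-5100 gave -0.84 (-1.37 to -0.31), miR-6956-3p -1.10 (-1.84 to -0.36) and miR-5123 1.03 (0.29 to 1.77).

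In the opposite direction, miR-345-5p was 10.36, 10.35 and 10.66 in WT PBS, 9.63, 10.61, 10.50 and 10.35 in WT bleomycin, 9.94, 10.21, 10.13 and 10.00 in R213G PBS and 10.70, 10.59, 11.10 and 10.70 in R213G bleomycin libraries. Every R213G PBS library lay below every WT PBS library, and the R213G minus WT difference was -0.39 after PBS and 0.50 after bleomycin. WT bleomycin replicate 1 lay below every other library. The interaction of 0.88 (0.33 to 1.44; limma adjusted p = 0.523) was 0.67 without that library, and the partner strand miR-345-3p had 0.17. For miR-329-3p, of the imprinted Dlk1-Dio3 cluster, the interaction was 0.90 (0.29 to 1.52), with 0.39 for miR-329-5p.

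Of the 12, miR-96-3p and miR-326-5p rest on values near the floor of the table. Mean levels were also under log2 5 for miR-466b-3p (3.78), miR-6956-3p (3.74) and miR-5123 (4.11). For miR-96-3p the WT PBS libraries held 0.06, 0.06 and 1.43, the WT bleomycin libraries 2.82, 3.01, 3.40 and 2.79, the R213G PBS libraries 1.93, 1.88, 3.05 and 1.95 and the R213G bleomycin libraries 1.82, 1.82, 1.33 and 2.88. The WT PBS libraries were the lowest group, although 1 R213G bleomycin library lay below the highest of them. Its interaction of -2.72 (-4.08 to -1.36; limma adjusted p = 0.399) had the smallest p of all, and the abundant partner strand miR-96-5p gave 0.13 (-0.43 to 0.69). The single miRNA called in both genotypes in opposite directions was miR-466b-3p, at 0.97 in WT and -0.81 in R213G, an interaction of -1.78 (limma adjusted p = 0.399). It is one of many near-identical Sfmbt2 intronic copies, so its counts are uncertain. Its WT values did not overlap between treatments (2.70 to 3.54 after PBS, 4.10 to 4.45 after bleomycin), while its R213G values did (3.76 to 4.52 and 2.73 to 4.17). For miR-326-5p the interaction was 2.22 (0.71 to 3.74), with 0.57 (-0.02 to 1.15) for the abundant miR-326-3p.

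**Figure D4:**
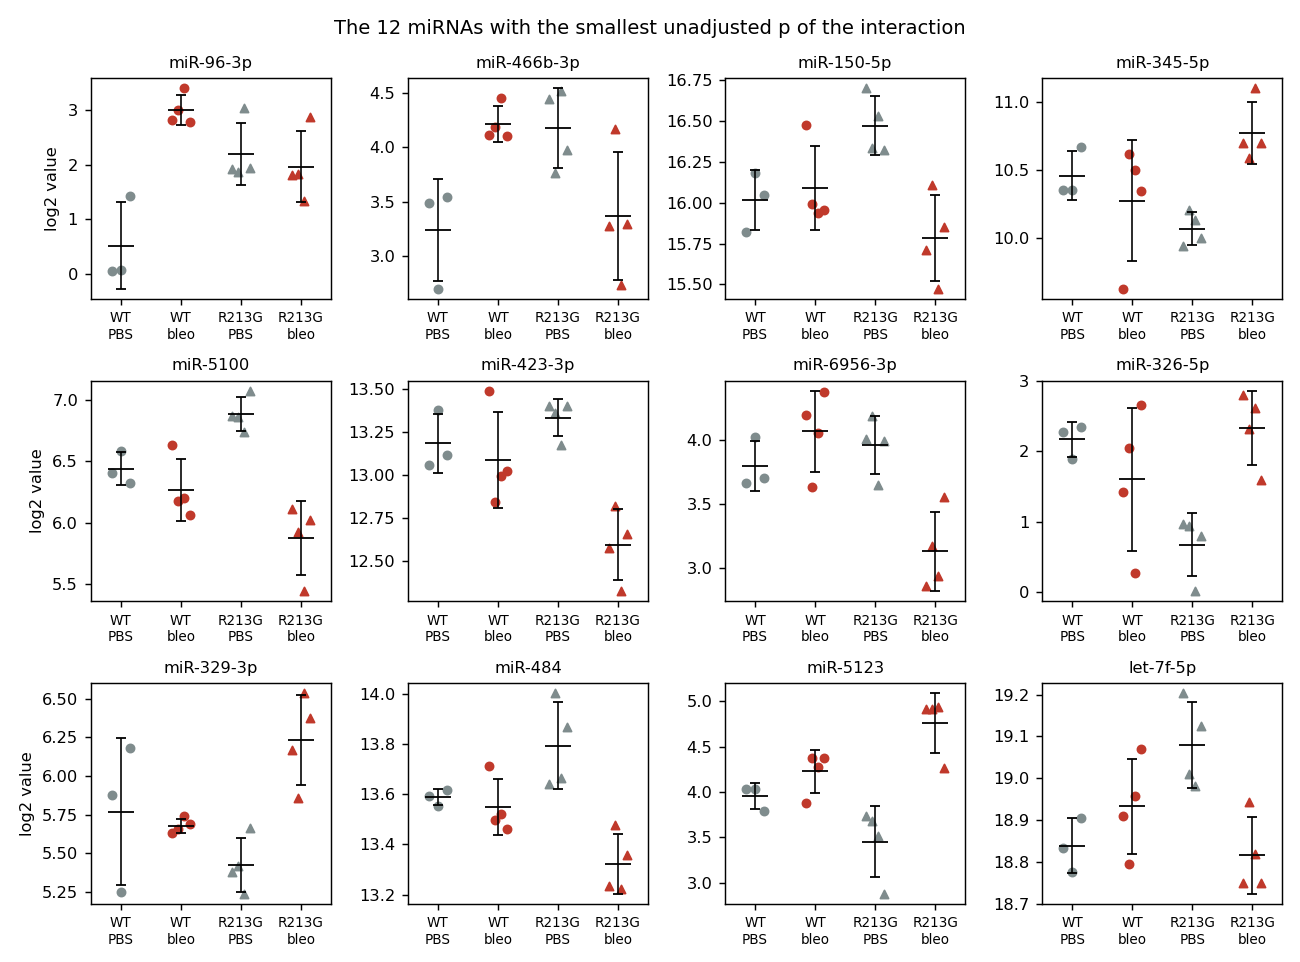
Log2 values in each library (vertical axes, scaled per miRNA) by genotype and treatment for the 12 miRNAs with the smallest unadjusted p of the interaction. Grey points are PBS and red points bleomycin libraries, circles WT and triangles R213G, and black bars the mean ± SD. For miR-150-5p and miR-423-3p the R213G treatments separate and the WT treatments overlap, and for miR-96-3p 2 WT PBS libraries lie near 0.

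Agreement between the arms of a hairpin was low for the interaction and high for the response itself. Over 234 hairpins with both arms tested, the interactions of the arms correlated at 0.24 and shared a sign in 133, while their mean responses correlated at 0.71. Over the 72 hairpins with both arms above log2 8 the values were 0.43 and 0.69, with the interaction's sign shared by 39. These are descriptions, and arms of a hairpin come from one precursor and the same libraries.

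Shared seeds gave no family with a common large interaction. The 9 tested miRNAs with the let-7 seed GAGGUAG had interactions from -0.36 (let-7f-5p) to 0.33 with a median of 0.03, and all 9 were bounded within 2-fold. So were all 4 with the miR-181 seed (median -0.10) and all 3 each of the miR-29 seed (-0.02), the miR-99 and miR-100 seed (0.05) and the seed shared by miR-125a-5p, miR-125b-5p and miR-351-5p (-0.03). Only miRNAs with a usable sequence could be grouped by seed, so a group may lack tested members. The seed GGCAGUG was found in 4 of them, miR-34a-5p and the ciliated cell miR-34b-5p, miR-449a-5p and miR-449c-5p. Their median responses were 1.14 in WT and 1.11 in R213G, but the 4 did not respond alike. In WT they ran from 0.08 (miR-34b-5p) to 1.82 (miR-449c-5p), and in R213G from 0.31 to 1.95 for the same miRNAs. Of 5 miRNAs with the miR-25 and miR-92a seed, 4 were negative, with a median of -0.45.

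Lists of miRNAs by role gave the same picture, with 0 members of any list passing the interaction test, against 0% of all tested. Each list is set beside the 49.5% bounded within 2-fold, the 7.95% with an unadjusted p under 0.05 and the median of -0.02 over all tested miRNAs. The lists overlap in miR-144, miR-141, miR-200a and miR-409. The list of NF-kB and macrophage activation miRNAs held 20, with 12 risers and 1 faller in WT against 13 and 1 in R213G. Their interactions had a median of -0.01 (0.01 after quantile normalization), 10 positive and 10 negative, with 0 under an unadjusted 0.05 and 14 bounded within 2-fold. Without WT PBS replicate 3 the median was -0.15 with 4 of 20 positive, and without WT PBS replicate 1 it was 0.09 with 13 positive. Here miR-155-5p, which drives leukocyte inflammation, gave -0.07 (-0.59 to 0.45) and miR-146a-5p, a feedback inhibitor of NF-kB, -0.23 (-0.71 to 0.25). The macrophage miRNA miR-147-3p, the strongest responder of the list, was poorly bounded, at 0.60 (-0.64 to 1.84), with WT PBS replicate 3 at 8.84 against 6.32 and 6.28 in the other WT PBS libraries. Without that library its interaction was -0.25, so its direction rests on 1 library.

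Leukocyte miRNAs had mostly negative interactions, set beside 431 negative of all 818. Of 6 myeloid and pan-leukocyte miRNAs 4 were negative, with a median of -0.34 that stayed between -0.43 and -0.24 without any 1 library. The 6 are the strands of miR-142a and miR-223, all negative, and of miR-511, both positive (0.18 for miR-511-5p). Strands of the same hairpin are not separate results, here or among the lymphocyte miRNAs. The pan-leukocyte miR-142a-5p rose in WT (0.68) and had 0.21 in R213G, an interaction of -0.47 (-0.82 to -0.12; limma adjusted p = 0.523). The granulocyte miR-223-3p had -0.43 (-0.90 to 0.05), while miR-511-3p, from a macrophage mannose receptor gene, had 0.49 (-0.10 to 1.07). Of 9 lymphocyte miRNAs 8 were negative, with a median of -0.12 and the strands of miR-150 as the only ones under an unadjusted 0.05. Others lay near 0 and were bounded within 2-fold, such as miR-342-3p at -0.03 (-0.38 to 0.33) and miR-342-5p at -0.05 (-0.55 to 0.46). The abundant miR-181a-5p gave -0.12 (-0.53 to 0.30). The list's median was -0.25 without WT PBS replicate 2 and -0.07 without WT PBS replicate 3, and 3 of 9 were positive after quantile normalization. In whole lung, fewer cells of a type and less of a miRNA per cell cannot be told apart.

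Most members of the fibrosis-linked lists were bounded within 2-fold. Of 12 pro-fibrotic miRNAs 10 rose in WT and 11 in R213G, the median interaction was 0.07, and 10 of 12 were bounded within 2-fold. That median was 0.0053 without WT PBS replicate 3, with 6 of 12 positive. The fibroblast miRNAs miR-199a-5p, miR-199b-3p and miR-214-3p gave 0.04, 0.06 and 0.15, where the 3p strands of miR-199a and miR-199b have one sequence. Under an unadjusted 0.05 were miR-199b-5p (0.50, 0.03 to 0.98) and the scarce miR-34a-3p (0.92, 0.09 to 1.74). Of 18 anti-fibrotic miRNAs 15 were bounded within 2-fold and 0 were under an unadjusted 0.05, with a median of 0.12. The median was 0.0041 without R213G bleomycin replicate 3, with 9 of 18 positive. Among them were the collagen repressor miR-29b-3p at 0.31 (-0.33 to 0.96), miR-26a-5p at -0.27 (-0.64 to 0.11), miR-30a-5p at 0.12 (-0.31 to 0.55) and let-7d-5p at 0.04 (-0.30 to 0.39).

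For an antioxidant enzyme variant the redox and hypoxia list is of particular interest. Of its 15 tested members 12 were bounded within 2-fold, 0 were under an unadjusted 0.05, and the median was -0.07, or 0.01 without WT PBS replicate 3. The hypoxia-induced miR-210-3p gave 0.26 (-0.04 to 0.57) and its scarcer strand miR-210-5p -0.79 (-1.61 to 0.02). The Keap1-targeting miR-141-3p and miR-200a-3p gave 0.07 and -0.08, and miR-27b-3p -0.13, each within 2-fold. The members not bounded within 2-fold were miR-210-5p and the strands of miR-144, which also stand in the erythroid list.

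All 7 erythroid miRNAs, a list for blood left in the lung, had positive interactions, with a median of 0.87, and none was bounded within 2-fold. Reads of miR-486a and miR-486b cannot be told apart with certainty, and miR-144 and miR-451a share a primary transcript, so these are not 7 separate results. The red cell miR-451a was 15.20, 14.58 and 15.78 in WT PBS, 13.08, 13.54, 13.18 and 12.81 in WT bleomycin, 15.91, 14.91, 15.95 and 14.11 in R213G PBS and 14.17, 14.63, 16.08 and 13.91 in R213G bleomycin libraries. In WT the treatments did not overlap, and in R213G they did, with bleomycin replicate 3 above every PBS library. The interaction of 1.51 (0.15 to 2.88; limma adjusted p = 0.601) was 1.05 without R213G bleomycin replicate 3. The list's median was 0.53 without that library and 1.18 without WT PBS replicate 2. The mean level of the list ran from 11.75 to 12.95 in WT PBS, 9.98 to 10.49 in WT bleomycin, 11.58 to 13.13 in R213G PBS and 10.71 to 12.40 in R213G bleomycin libraries. Blood content was not measured apart from these miRNAs, and its part in the result was not tested.

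Structural cell lists had medians between -0.20 and 0.14, and that of the endothelial list ran from -0.31 without WT PBS replicate 2 to -0.07 without WT PBS replicate 3. All 4 endothelial miRNAs were bounded within 2-fold, with miR-126a-3p at -0.28 (-0.68 to 0.12) and miR-126b-3p at -0.11. Both miR-126b-3p and miR-126a-5p had a mean level of 18.80 and an interaction of -0.11, so they may not be separate measurements. Of 14 epithelial miRNAs 11 were bounded, with a median of -0.09. Here miR-200c-3p gave 0.09 (-0.30 to 0.48) and miR-429-3p -0.37 (-0.67 to -0.07). The passenger strand miR-31-3p had the list's highest interaction, 0.95 (0.13 to 1.76; limma adjusted p = 0.587). Of 9 ciliated cell miRNAs 6 were bounded and 7 were positive, with miR-34c-5p at 0.13 and miR-449a-5p at -0.30. The scarce miR-449c-3p had the list's highest interaction, 1.99 (0.05 to 3.94; limma adjusted p = 0.611), and miR-449b had 1.09 (-0.30 to 2.48). The list's median of 0.14 ran from 0.0026 to 0.31 without 1 library, and with array weights 3 of 9 were positive. Of 11 smooth muscle and mesenchymal miRNAs 10 were bounded. The most abundant miRNA of the lung, miR-143-3p, gave -0.05 (-0.36 to 0.27), and miR-125b-5p gave 0.03 (-0.24 to 0.31). From the same cluster as miR-143, miR-145a-5p gave 0.48 (0.07 to 0.89; limma adjusted p = 0.587). Its abundant partner strand miR-145a-3p gave 0.03 (-0.27 to 0.33).

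Muscle and other-organ miRNAs were the least precise. Only miR-208b-3p of 9 striated and cardiac muscle miRNAs was bounded within 2-fold, at 0.11 (-0.36 to 0.57), and the list's median half-width was 1.40. The muscle miRNA miR-133a-3p stood at 16.24 in WT PBS replicate 3 against 14.19 and 13.88 in the other WT PBS libraries. Its interaction was -0.66 (-1.86 to 0.54), and -1.40 without that library, while the list's median moved from -0.12 to -0.82. Without WT PBS replicate 2 these were -0.22 and 0.18, with 7 of 9 members positive, so the list's direction rests on single libraries. Of 9 miRNAs of other organs 3 were bounded, among them the gut miRNAs miR-192-5p (-0.13, -0.44 to 0.18) and miR-194-5p (-0.19, -0.55 to 0.17). Of 23 proliferation-linked miRNAs of the miR-17 to miR-92a cluster and its paralogues, 13 were bounded and 10 were positive. Their median was -0.20 (-0.26 to -0.09 without 1 library), with miR-92a-3p at -0.31 (-0.68 to 0.05) and miR-25-3p at 0.05. Among the 11 with a mean level above log2 8 the median was 0.14 and 8 were positive, so the list's direction depended on abundance. The highest was miR-18a-5p at 0.82 (-0.48 to 2.13).

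All 9 tested miRNAs of the Htr2c introns had positive interactions. All 9 fell in WT and 7 fell in R213G, with median differences of -1.65 and -0.96, so the fall was smaller in R213G in each point estimate. The median interaction was 0.45, between 0.35 and 0.56 without any 1 library, with 3 members under an unadjusted 0.05 and 4 bounded within 2-fold. Those 3 were miR-448-5p (mean level 1.74, near the floor), miR-1912-5p (4.65) and miR-1912-3p (5.69), none of them abundant. By library the list's mean level was 6.23 to 6.52 in WT PBS and 6.18 to 6.79 in R213G PBS, which overlapped. It was 4.51 to 4.96 in WT bleomycin and 5.38 to 5.76 in R213G bleomycin, which did not overlap. The most abundant members, miR-1298-5p and miR-1264-3p, gave 0.38 and 0.42 (-0.13 to 0.98). These miRNAs are cut from introns of one gene and are not separate results, and none passed (smallest limma adjusted p = 0.523, for miR-448-5p).

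The Dlk1-Dio3 region is imprinted and transcribed mostly before birth. Of its 65 tested miRNAs 35 had positive and 30 negative interactions, with a median of 0.04. It was -0.26 without WT PBS replicate 3 and 0.23 without WT PBS replicate 2. The abundant miR-127-3p gave 0.24 (-0.16 to 0.64) and miR-411-5p -0.26 (-0.93 to 0.41), and 30 of the 65 were bounded within 2-fold.

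**Figure D5:**
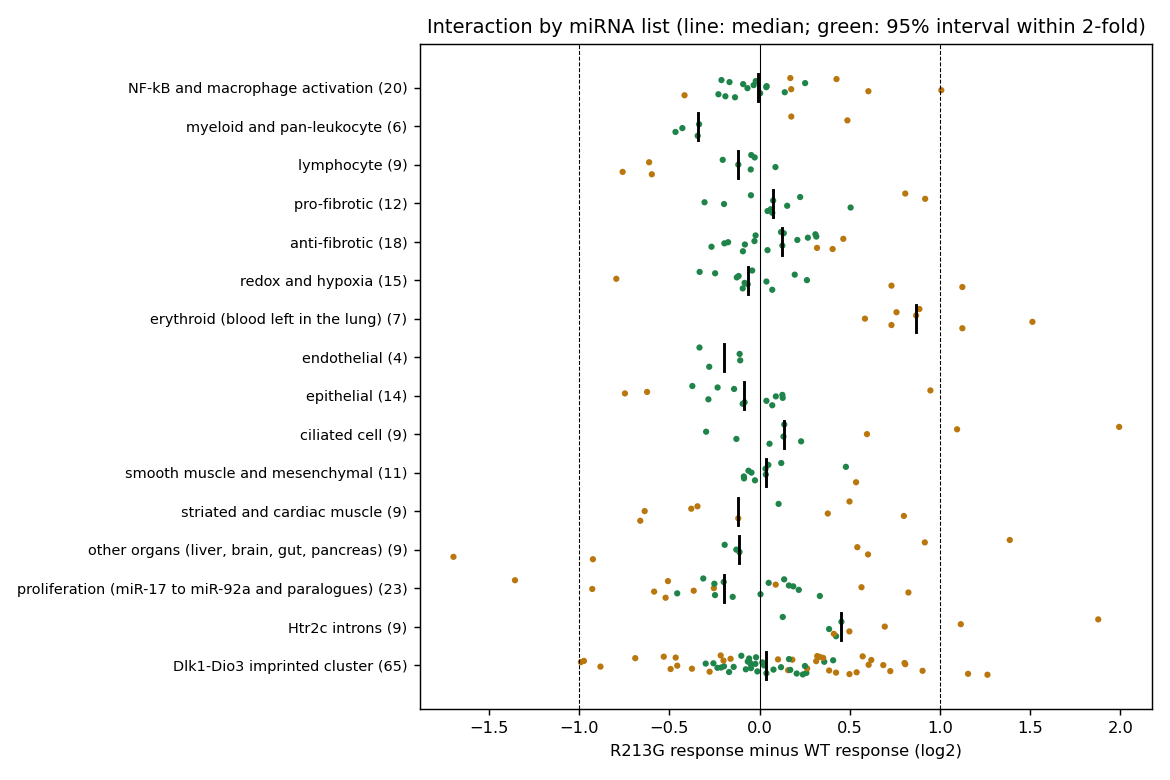
Interaction (R213G response minus WT response, log2) of each tested member of 16 miRNA lists, with the number of members in brackets. Green points have a 95% confidence interval within 2-fold, brown points do not, black lines are list medians and dashed lines mark 2-fold. Most medians lie near 0, with the erythroid list (0.87) and the Htr2c intron list (0.45) to the right and the myeloid list (-0.34) to the left.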

How the data were processed

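Small RNA was sequenced in 15 lung libraries. The labels describe miRNeasy extraction and Illumina libraries, and the submitters' processing notes name Bowtie2 2.3.2, SAMtools 1.9 and edgeR without their roles. Neither the genome build nor the miRBase release is given in the sources used here. The deposited per-library columns hold log2 values. From the values these were taken as log2 of 1 plus a count the authors equalized to a common library size, which no source states. Read depth is therefore unknown, scarce miRNAs can hold small positive values without reads, and no count test or counting interval was computed. The deposited fold, p-value and q-value columns were not used.

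A limma 3.58.1 model (R 4.3.3, intensity trend, 1 mean per group, 15 libraries) gave each response and the interaction, with Benjamini-Hochberg adjustment over 818 miRNAs and 0.05 as threshold. Confidence intervals are moderated and unadjusted. The filter, a value above 5 in at least 3 libraries, was met by exactly 3 libraries for 22 miRNAs (mean level up to 2.20) and missed with 2 for 34 (up to 2.12). All 15 libraries met it for 596, and 4 passed through 1 group alone. The model was tested on simulated data.

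Named miRNAs were the 12 with the smallest interaction p, since fewer than 5 were called, the 12 risers and 8 fallers with the smallest p in the mean response, the 2 most abundant per list, 11 fixed ones, and the 3 widest and 3 narrowest intervals. Host genes come from GENCODE M21 on GRCm38. Other miRNAs named, such as partner strands and list members under an unadjusted 0.05, were chosen after their values were seen. The members and lists were chosen with earlier results of these data known. Alternatives were leaving out each library, the filter, pseudocount 5, equal medians, quantile normalization, no trend, array weights, a replicate block and a tag term. Tags are the numbers in the library names, 745 to 752 in R213G and 777 to 783 in WT. A difference between these number series cannot be told apart from genotype, and the tag term split the R213G libraries alone.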

Additional observations from a re-analysis of the deposited data

Results flagged for a closer look

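Single libraries stood apart from the other 3 of their group (Dixon's test at 95%) in 16 of 216 groups of 4 checked over the 72 named miRNAs, where chance flags about 1 in 20. R213G PBS replicate 3 was the one in 5 of them: miR-96-3p (3.05 against 1.88 to 1.95), miR-423-3p (13.18 against 13.36 to 13.40), miR-328-3p (12.51 against 12.66 to 12.67), miR-142a-3p (13.06 against 12.73 to 12.76) and miR-92a-3p (17.43 against 17.66 to 17.69). Other R213G PBS libraries apart were replicate 1 for miR-21a-3p (10.52) and let-7i-5p (17.63), and replicate 2 for miR-335-3p (12.26) and miR-1264-3p (8.17). WT bleomycin replicate 1 stood apart for miR-150-5p (16.47 against 15.94 to 15.99), miR-328-3p (12.13) and miR-25-3p (15.30), and WT bleomycin replicate 3 for miR-155-5p (11.70 against 12.18 to 12.24). In R213G bleomycin, replicate 4 stood apart for miR-5123 (4.27), replicate 2 for miR-335-3p (13.42, within 0.05 of the others) and replicate 1 for the liver miRNA miR-122-5p (8.96 against 4.24 to 5.01).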

How the results depend on the processing

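No alternative called an interaction. The count stayed 0 in all 24 refits and at an adjusted p under 0.1, and the smallest adjusted p in any of them was 0.101 (without R213G bleomycin replicate 2). Leaving out 1 library at a time gave 136 to 198 miRNAs called in both genotypes in one direction, 21 to 53 in WT alone, 124 to 207 in R213G alone, 365 to 415 bounded within 2-fold and a median half-width of 0.71 to 0.74. Keeping only the 287 miRNAs with a mean above log2 8, which tests fewer of them, gave 109 in both, 13 in WT alone, 71 in R213G alone, 256 bounded and a half-width of 0.40. Without a filter, over 1424 miRNAs, the half-width was 1.05. With a 1.5-fold margin 175 were bounded, a stricter limit by construction, and with pseudocount 5, which shrinks scarce miRNAs, 544. Equal library medians moved the median interaction from -0.02 to -0.04 and quantile normalization to -0.01. The replicate block gave 0 interactions, 174 in both, 41 in WT alone, 174 in R213G alone, 406 bounded and a half-width of 0.72. Same-numbered libraries deviated together in 6 of 14 pairs (r above 0.1, range -0.14 to 0.26), and 5 correlated best with their own number, so the numbers were not taken to pair the animals. The matches were uneven. In R213G, PBS replicates 2, 3 and 4 each correlated best with the bleomycin library of their number (r of 0.14, 0.26 and 0.14), and in WT no PBS library did. For the 72 named miRNAs all 1711 refitted interactions stayed uncalled, and the 81 that changed sign lay within 1 SE of 0 in both fits. This does not cover miRNAs outside the 72. There miR-147-3p, at 0.60 ± 0.59 (SE) with all libraries, changed sign without WT PBS replicate 3.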
